A study of Mus musculus with 2 samples.

Results

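The 10 genes described here encode neuronal splicing regulators and RNA-binding proteins: Rbfox1, Rbfox2 and Rbfox3, Nova1 and Nova2, Elavl2, Elavl3 and Elavl4, and the polypyrimidine tract-binding proteins Ptbp1 and Ptbp2. They were picked by symbol from 43346 genes in the deposited tables, and all 10 were found. Their 65 annotated transcripts were taken from 103639 transcripts in all. The RNA came from the brain of 1 adult mouse, a male of the inbred strain C57BL/6J, at an age of 10 weeks. No treatment or genetic change is named in the labels, and the part of the brain is not given. Poly(A) RNA was measured in 2 libraries, labelled technical replicates 1 and 2 of 1 biological replicate, and replicate 2 was made later. The only comparison the design allows is therefore library against library. With a single library on either side, differences could not be checked against replicates, and the spread says nothing about differences between animals.

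These proteins decide which exons a neuron keeps. Rbfox and Nova proteins bind short motifs in pre-mRNA, and where they bind relative to an alternative exon sets whether it is included or skipped. Elavl proteins, also called Hu proteins, bind U-rich and AU-rich sequences, stabilise mRNAs and also act on splicing. Ptbp1 binds pyrimidine-rich tracts and represses many neuronal exons in non-neuronal cells and progenitors. As neurons form, Ptbp1 falls and its paralog Ptbp2 takes over, before other exons are released in mature neurons. Ptbp1 itself promotes skipping of a short exon of Ptbp2, which sends that transcript to nonsense-mediated decay. Rbfox3 is the antigen known as NeuN, the common nuclear marker of neurons.

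Paralogs of these families encode closely related proteins with different nucleotide composition, and the measured differences between the libraries ran along that composition. The following coding exons are shown for that reason. All sequences are from GENCODE M21 on GRCm38, printed 5′ to 3′ on the strand of the gene, and capitals mark bases that differ from the paralog named first in each group. In the Nova family, exon 2 of Nova1 (chr12:46816886-46817029, minus strand) and exon 2 of Nova2 (chr7:18942216-18942359, plus strand) encode part of the first KH domain, an RNA-binding fold.
Nova1: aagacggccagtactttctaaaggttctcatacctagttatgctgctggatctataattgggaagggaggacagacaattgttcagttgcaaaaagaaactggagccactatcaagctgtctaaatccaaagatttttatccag
Nova2: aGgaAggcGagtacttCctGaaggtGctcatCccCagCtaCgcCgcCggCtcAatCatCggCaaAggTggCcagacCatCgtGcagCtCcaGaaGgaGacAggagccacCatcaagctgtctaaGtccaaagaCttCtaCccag
These exons of 144 bases differed at 34 bases. At 26 of them Nova2 had G or C where Nova1 had A or T, and at 2 the reverse held. The GC content was 40.3% in Nova1 and 56.9% in Nova2. In the Ptbp family, exon 7 of Ptbp2 (chr3:119747592-119747702, minus strand) and exon 6 of Ptbp1 (chr10:79859602-79859712, plus strand) encode part of the second RNA recognition motif.
Ptbp2: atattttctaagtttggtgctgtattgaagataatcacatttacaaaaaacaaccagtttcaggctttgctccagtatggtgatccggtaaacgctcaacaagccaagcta
Ptbp1: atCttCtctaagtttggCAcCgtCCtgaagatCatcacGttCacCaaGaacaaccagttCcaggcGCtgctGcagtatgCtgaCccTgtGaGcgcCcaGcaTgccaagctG
Of the 111 bases 25 differed, 20 of them with G or C in Ptbp1 alone and 2 with G or C in Ptbp2 alone. GC content was 37.8% in Ptbp2 and 54.1% in Ptbp1. In the Elavl family, exon 3 of Elavl4 (chr4:110226545-110226648), Elavl2 (chr4:91281214-91281317) and Elavl3 (chr9:22036312-22036415), all on the minus strand, encodes part of the first RNA recognition motif.
Elavl4: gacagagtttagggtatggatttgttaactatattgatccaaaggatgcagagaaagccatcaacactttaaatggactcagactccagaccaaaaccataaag
Elavl2: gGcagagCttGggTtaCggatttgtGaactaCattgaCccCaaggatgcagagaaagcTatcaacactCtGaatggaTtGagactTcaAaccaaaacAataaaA
Elavl3: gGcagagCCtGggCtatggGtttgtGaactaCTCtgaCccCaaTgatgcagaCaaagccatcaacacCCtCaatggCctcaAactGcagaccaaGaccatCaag
Elavl2 differed from Elavl4 at 18 of 104 bases and Elavl3 at 22. GC content was 38.5% in Elavl4, 41.3% in Elavl2 and 51.9% in Elavl3. The Rbfox exon of 93 bases, which encodes part of the single RNA recognition motif, was taken from Rbfox1 (chr16:7292185-7292277, plus strand), Rbfox2 (chr15:77105577-77105669, minus strand) and Rbfox3 (chr11:118502842-118502934, minus strand).
Rbfox1: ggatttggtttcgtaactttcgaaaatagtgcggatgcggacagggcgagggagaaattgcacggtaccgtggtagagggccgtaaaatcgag
Rbfox2: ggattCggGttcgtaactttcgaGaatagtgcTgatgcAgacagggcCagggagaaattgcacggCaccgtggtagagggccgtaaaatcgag
Rbfox3: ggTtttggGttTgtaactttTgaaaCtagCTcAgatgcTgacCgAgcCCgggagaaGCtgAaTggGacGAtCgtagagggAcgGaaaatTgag
Here the order was another one, with GC contents of 51.6%, 53.8% and 49.5%. Over whole GENCODE M21 transcripts, weighted by level, GC content was 46.4% for Rbfox1, 50.6% for Rbfox2 and 57.9% for Rbfox3. It was 38.5% for Nova1 and 56.3% for Nova2. In the Elavl family it was 40.0% for Elavl2, 54.1% for Elavl3 and 38.5% for Elavl4, and in the Ptbp family 54.3% for Ptbp1 and 40.6% for Ptbp2. Some M21 sequences are much shorter than the transcripts that were quantified. Rbfox1-201 has 3061 bases against 4084, Rbfox2-201 1720 against 6980 and Rbfox2-202 3072 against 6564. The GC content of Rbfox1 and Rbfox2 thus leaves out part of their quantified sequence.

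The libraries held 18302506 and 17828479 expected counts. Mitochondrial genes and a nuclear copy of them on chromosome 1 took 63.2% of TPM, a level per transcript length that adds up to an equal total in either library, in replicate 1 and 29.1% in replicate 2. All 24 listed markers of brain cell types had counts in both libraries. Neuronal markers summed to 4741 and 4384 TPM, astrocyte markers to 898 and 1781, oligodendrocyte markers to 1945 and 2744, precursors of oligodendrocytes to 9.54 and 16.4, microglial markers to 64.0 and 167.5 and endothelial markers to 15.1 and 79.2. The 3 markers of liver, skeletal muscle and sperm summed to 0.17 TPM in replicate 1, with the sperm marker Prm1 at 0, and to 6.49 TPM in replicate 2. The part of this cell type shift in the results below was not tested. In a bulk sample, fewer cells of a type and less RNA per cell cannot be told apart.

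All 10 genes were detected in both libraries, and 6 had a higher TPM in replicate 2, beside 74.1% of all genes with a mean TPM of 1 or more. Expected counts were compared by an exact binomial test with TMM library sizes from edgeR, Benjamini-Hochberg adjusted over 16320 genes, and a gene was called at an adjusted p under 0.05 and a difference of at least 2-fold. By this rule 9 of the 10 genes were called: in replicate 2, 4 stood higher and 5 lower. Among all genes tested 58.5% were called, 34.5% higher and 24% lower, so a call by itself was common. The test covers counting error only and compares these libraries, not conditions. With library totals in place of TMM every log2 count ratio moved up by 0.61, and 6 of the 10 genes were called, 4 higher and 2 lower, beside 51.5% of all genes (43.6% higher, 7.9% lower). The median log2 count ratio with TMM was -0.55 for the 10 genes and 0.09 for all genes tested. On the scale of log2(TPM + 1), which understates the change of low genes, the median ratio of replicate 2 over replicate 1 was 0.57 for the 10 genes and 0.89 for 14188 genes whose mean TPM reached 1. A log2 TPM ratio near 0 is thus low for these libraries.

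**Figure D1:**
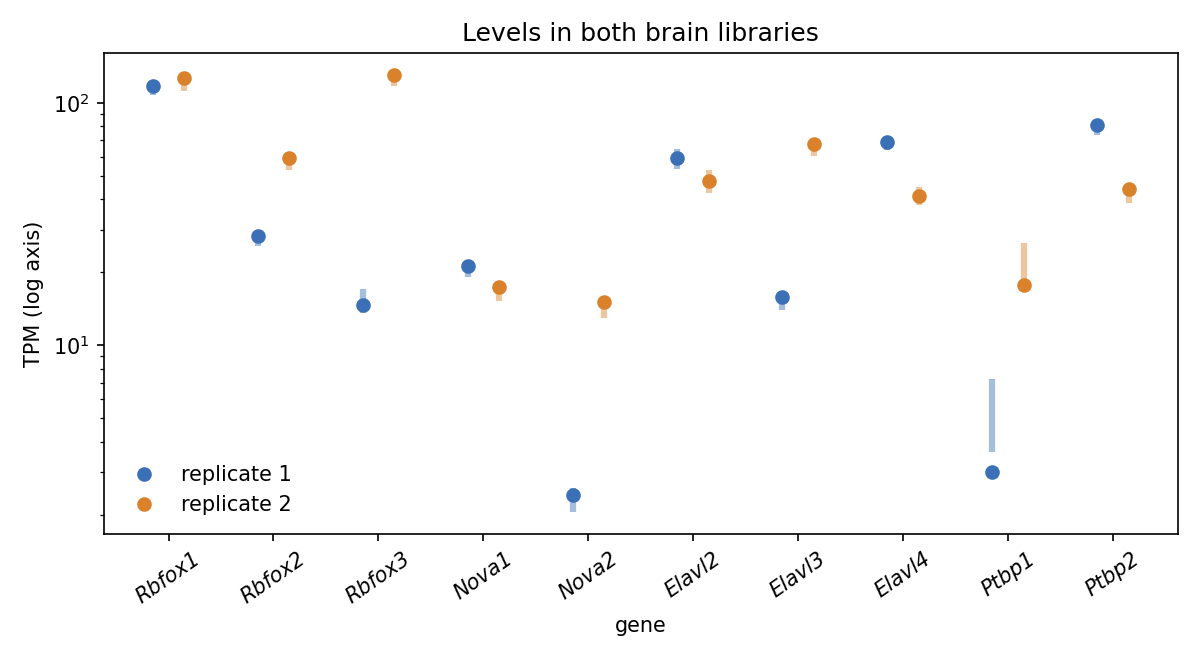
TPM of each gene (log axis) in replicate 1 (blue) and replicate 2 (orange). Points are the deposited TPM, and bars are the deposited intervals, which are centred on the posterior mean TPM, so points can lie outside them. Rbfox3, Nova2, Elavl3 and Ptbp1 stand far higher in replicate 2, while Rbfox1, Nova1 and Elavl2 lie close together.

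The Rbfox genes summed to 160.8 TPM in replicate 1 and 316.4 in replicate 2, and to 436.7 and 446.5 when TPM was rescaled over genes outside the mitochondrial ones and their nuclear copy. Rbfox1 led them in replicate 1, while in replicate 2 no leader could be told, since the intervals of Rbfox1 and Rbfox3 overlapped. Rbfox1 (ENSMUSG00000008658.11, chromosome 16, 5885355 to 7411526), the long neuronal and muscle gene of the family, was at 117.8 and 126.7 TPM (122.3 ± 6.29, SD, n = 2) on 6605 and 4262 counts. Its deposited TPM levels were close and its deposited TPM intervals, 108.3 to 113.7 and 112.2 to 121.6, overlapped. By counts Rbfox1 was called lower, with a log2 count ratio of -1.20 with TMM, and was not called with totals, where the ratio was -0.59. Deposited TPM and counts thus pointed in opposite directions for this gene: its TPM ratio was 1.08 (95% counting interval 1.03 to 1.12). With TPM rescaled outside mitochondrial genes and their nuclear copy, Rbfox1 was at 319.9 and 178.8, lower in replicate 2 as by counts.

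Rbfox2 (ENSMUSG00000033565.12, chromosome 15, 77078990 to 77307004), which is expressed in many tissues besides neurons, was at 28.3 and 59.2 TPM (43.7 ± 21.8, SD, n = 2) on 2598 and 4130 counts. Its TPM in replicate 2 was 2.09 times that in replicate 1 (1.99 to 2.20). It was the one gene of the 10 not called, with a log2 count ratio of 0.10 (exact binomial test with edgeR's TMM sizes, adjusted p = 0.010, under 2-fold). Rbfox3 (ENSMUSG00000025576.13, chromosome 11, 118489762 to 118911597), the NeuN gene, had 14.7 TPM in replicate 1 and 130.5 in replicate 2 (72.6 ± 81.9, SD, n = 2) on 557 and 3475 counts. This was the widest gap among the 10 genes, a ratio of 8.87 (8.11 to 9.72), and the count ratio on the log2 scale was 2.07 (exact binomial test, adjusted p = 2.88e-294). The neuron marker gene therefore stood near the bottom of the 10 in one library and at the top in the other. The 5 listed neuronal markers were themselves split, with Tubb3 at 25.7 and 308.7 TPM, Stmn2 at 148.2 and 335.3, Syt1 at 503.0 and 569.7, Map2 at 606.6 and 406.0 and Snap25 at 3457 and 2764. In replicate 1 Rbfox1 was 8.00 times as high as Rbfox3 (7.34 to 8.74), and in replicate 2 the ratio was 0.971 (0.928 to 1.02), which includes equal levels.

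In the Nova family Nova1 had the lower TPM and Nova2 the higher TPM in replicate 2. Nova1 (ENSMUSG00000021047.6, chromosome 12, 46694517 to 46818929), which prevails in hindbrain and spinal cord, was at 21.2 and 17.5 TPM (19.4 ± 2.66, SD, n = 2) on 2081 and 1292 counts. The ratio was 0.823 (0.767 to 0.883), and the gene was called lower with TMM (log2 count ratio -1.26, exact binomial test, adjusted p = 2.24e-138) but not with totals (-0.65). Nova2 (ENSMUSG00000030411.11, chromosome 7, 18925888 to 18965319), the paralog that prevails in neocortex, was at 2.42 and 15.1 TPM (8.74 ± 8.94, SD, n = 2) on 285 and 1240 counts. Replicate 2 held 6.22 times the level (5.47 to 7.10), with a log2 count ratio of 1.55 (exact binomial test, adjusted p = 5.99e-72). Nova1 thus exceeded Nova2 by 8.78 times (7.75 to 9.97) in replicate 1 and by 1.16 times (1.07 to 1.26) in replicate 2.

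The Elavl genes summed to 144.6 and 157.2 TPM, and to 392.7 and 221.8 outside mitochondrial genes, so the direction of the sum turned with the scaling. The make-up of the sum, which does not depend on it, differed between the libraries. Elavl2 (ENSMUSG00000008489.14, chromosome 4, 91250763 to 91400785), or HuB, was at 59.5 and 47.8 TPM (53.7 ± 8.27, SD, n = 2) on 2993 and 1563 counts. Its ratio was 0.803 (0.755 to 0.854), and it was called lower with TMM at a log2 count ratio of -1.51 (exact binomial test, adjusted p = 3.35e-262) and not with totals (-0.90). Elavl4 (ENSMUSG00000028546.13, chromosome 4, 110203722 to 110351909), or HuD, was at 69.3 and 41.4 TPM (55.4 ± 19.7, SD, n = 2) on 3547 and 1669 counts. It was lower in replicate 2 under both scalings, by a TPM ratio of 0.598 (0.564 to 0.634) and log2 count ratios of -1.66 with TMM and -1.05 with totals. Elavl3 (ENSMUSG00000003410.7, chromosome 9, 22015005 to 22052023), or HuC, went the other way, with 15.8 and 67.9 TPM (41.9 ± 36.8, SD, n = 2) on 1102 and 3564 counts. Its ratio was 4.29 (4.01 to 4.60) and its log2 count ratio 1.12 with TMM (exact binomial test, adjusted p = 1.27e-125). Elavl4 was 4.38 times as high as Elavl3 in replicate 1 (4.09 to 4.69) and 0.610 times as high in replicate 2 (0.575 to 0.647), so the order of these paralogs differed between the libraries.

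Ptbp1 (ENSMUSG00000006498.12, chromosome 10, 79854427 to 79864771) was the lowest of the 10 genes by count, with 70 and 437 counts and 3.0 and 17.8 TPM (10.4 ± 10.5, SD, n = 2). Replicate 2 held 5.94 times the TPM (4.60 to 7.75), and the log2 count ratio was 2.06 (exact binomial test with TMM, adjusted p = 3.08e-38). Ptbp2 (ENSMUSG00000028134.7, chromosome 3, 119718742 to 119784466) was at 81.1 and 44.0 TPM (62.6 ± 26.2, SD, n = 2) on 3708 and 1517 counts, lower in replicate 2 with TMM (log2 count ratio -1.86) and with totals (-1.25). For Rbfox1, Elavl4 and Ptbp2 the adjusted p of the exact binomial test with TMM was below the smallest number the calculation can hold. In bulk RNA of mixed cells, Ptbp2 exceeded Ptbp1 in both libraries, the order known for mature neurons, whose own levels were not measured. The size of that excess differed widely: 27.0 times in replicate 1 (95% counting interval 21.3 to 34.8) and 2.47 times in replicate 2 (2.22 to 2.76). With the deposited posterior mean TPM the ratios were 14.4 and 1.82. Ptbp1 overlaps Plppr3 on the opposite strand, with 3 and 912 counts in replicates 1 and 2, and the noncoding gene E130317F20Rik, with 9 and 50 counts. The sources used here do not say whether counting used strand, so reads of Ptbp1 and these neighbours may not be told apart.

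**Figure D2:**
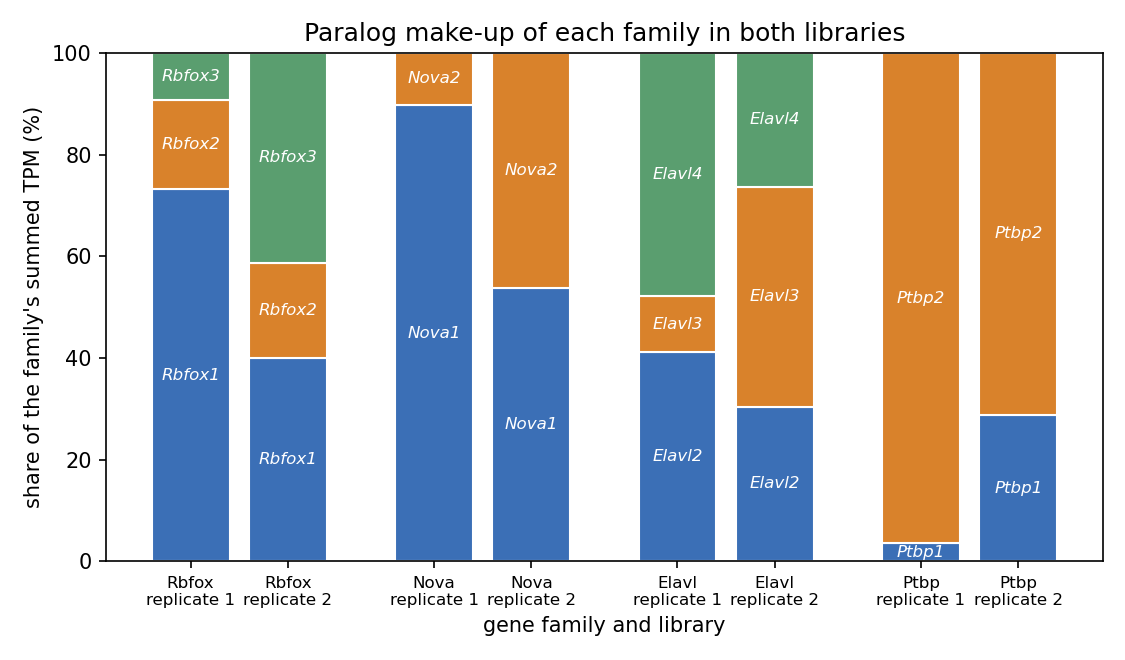
Share of each family's summed TPM (%) held by each paralog, with 1 bar per library. Rbfox3, Nova2, Elavl3 and Ptbp1 take 9.15%, 10.2%, 10.9% and 3.57% of their families in replicate 1 and 41.3%, 46.3%, 43.2% and 28.8% in replicate 2.

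Within each family the paralog with the highest GC content held a larger share in replicate 2. Rbfox3 went from 9.15% to 41.3% of Rbfox TPM, while Rbfox1 went from 73.3% to 40.0% and Rbfox2 stayed near its share, at 17.6% and 18.7%. Nova2 went from 10.2% to 46.3% of Nova TPM. Elavl3 went from 10.9% to 43.2% of Elavl TPM, against 41.1% and 30.4% for Elavl2 and 47.9% and 26.4% for Elavl4. Ptbp1 went from 3.57% to 28.8% of Ptbp TPM. A share within a family does not depend on how the libraries were scaled to each other.

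The order of the 10 levels also differed. In replicate 1 it ran Rbfox1, Ptbp2, Elavl4, Elavl2, Rbfox2, Nova1, Elavl3, Rbfox3, Ptbp1 and Nova2, from place 639 to place 9408 among all genes. In replicate 2 it ran Rbfox3, Rbfox1, Elavl3, Rbfox2, Elavl2, Ptbp2, Elavl4, Ptbp1, Nova1 and Nova2, from place 1042 to place 7598. Neighbours whose deposited intervals overlapped numbered 2 in replicate 1, Elavl4 with Elavl2 and Elavl3 with Rbfox3. They numbered 4 in replicate 2: Rbfox3 with Rbfox1, Rbfox2 with Elavl2, Elavl2 with Ptbp2, and Ptbp2 with Elavl4. The other neighbours did not overlap. The TPM itself lay inside its deposited interval for 4 of the 10 genes in replicate 1 and 2 in replicate 2, and for Ptbp1 in neither, where the posterior mean TPM was 5.31 and 22.3. Spearman's rho between the orders was 0.33 over the 10 genes, given as a description. Nova2 came last in both.

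Genes with a higher GC content had higher ratios. The 4 genes called higher, Rbfox3, Nova2, Ptbp1 and Elavl3, had a GC content of at least 54.1%, and the 5 called lower, Rbfox1, Ptbp2, Elavl2, Nova1 and Elavl4, of at most 46.4%. Rbfox2, which was not called, lay between them at 50.6%. Spearman's rho of the log2 TPM ratio with GC content was 0.90 over the 10 genes and 0.89 over 14188 genes, so the relation was as strong across the whole table as among these genes. The points of this description share both libraries and are not independent.

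**Figure D3:**
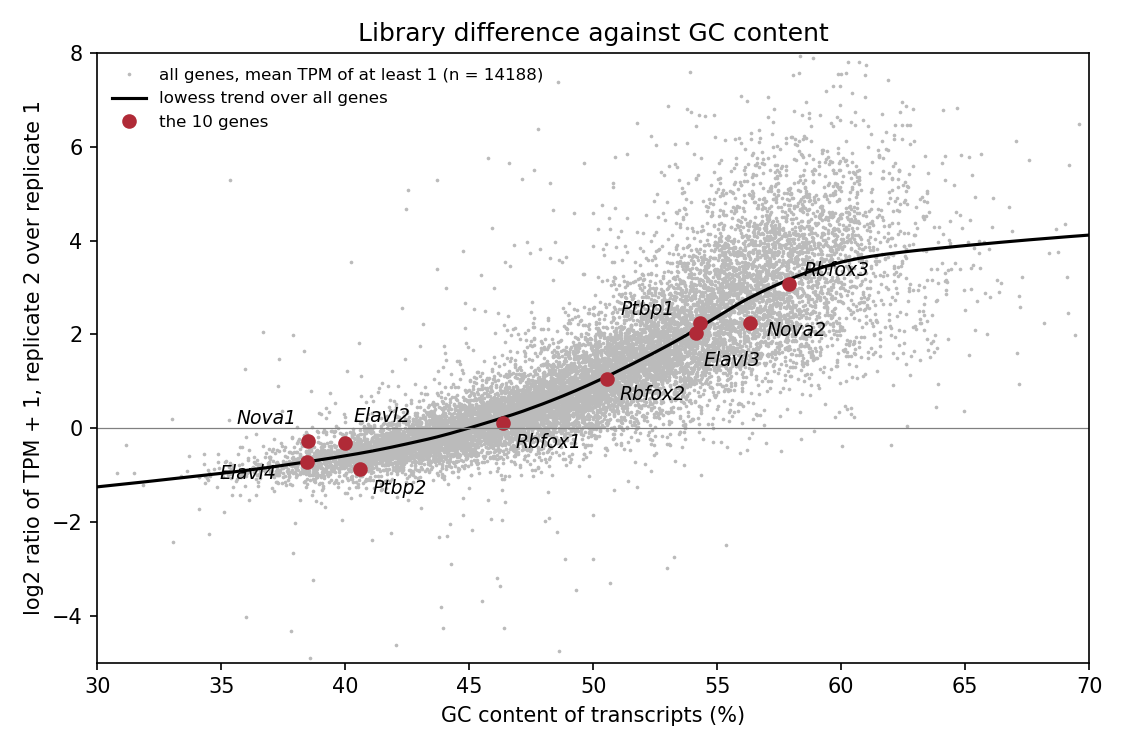
Log2 ratio of TPM + 1, replicate 2 over replicate 1, against the GC content of each gene's transcripts (%). Grey points are 14188 genes, the line is the lowess trend over them, the 10 genes are red, and 18 genes lie outside the axes. The 10 genes lie within -0.55 to 0.45 of the trend.

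After the trend of all genes on GC content was subtracted, the remaining log2 TPM ratio was -0.12 for Rbfox1, -0.062 for Rbfox2 and -0.11 for Rbfox3. It was 0.45 for Nova1 and -0.55 for Nova2, the 2 genes farthest from the trend. Among the others it was 0.28 for Elavl2, -0.064 for Elavl3, -0.012 for Elavl4, 0.083 for Ptbp1 and -0.33 for Ptbp2. The median absolute log2 ratio of the 10 genes was 0.95 before and 0.11 after this step, beside 0.97 and 0.37 for all genes. When a GC trend was removed from the counts, 2 of the 10 genes were called, Rbfox3 (log2 count ratio -1.57) and Nova2 (-1.35), both lower. By that rule 19.6% of all genes were called, 10.4% higher and 9.25% lower. For both genes the direction was thus opposite to that of the counts as deposited. Counts and log2(TPM + 1) left different remainders. For Rbfox3 these were -1.57 on counts and -0.11 on TPM, and for Elavl2 0.11 and 0.28.

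Transcripts were read from the deposited share that each holds of its gene. Nova1, Elavl3 and Ptbp2 had 1 annotated transcript each, and the other 7 genes had several. Of those 7 the same transcript led in both libraries for Rbfox1, Rbfox3 and Nova2, and another one led in Rbfox2, Elavl2, Elavl4 and Ptbp1. Of all 65 transcripts, 18 had 0 counts in replicate 1 alone, 3 in replicate 2 alone and 17 in both. Neither kind of count was made over all 103639 transcripts, so they show nothing particular to these genes. Among all genes, 11608 had a TPM of at least 1 in replicate 1 and 14780 in replicate 2. The shares are model estimates, depend on reads that tell transcripts apart, and were not tested.

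**Figure D4:**
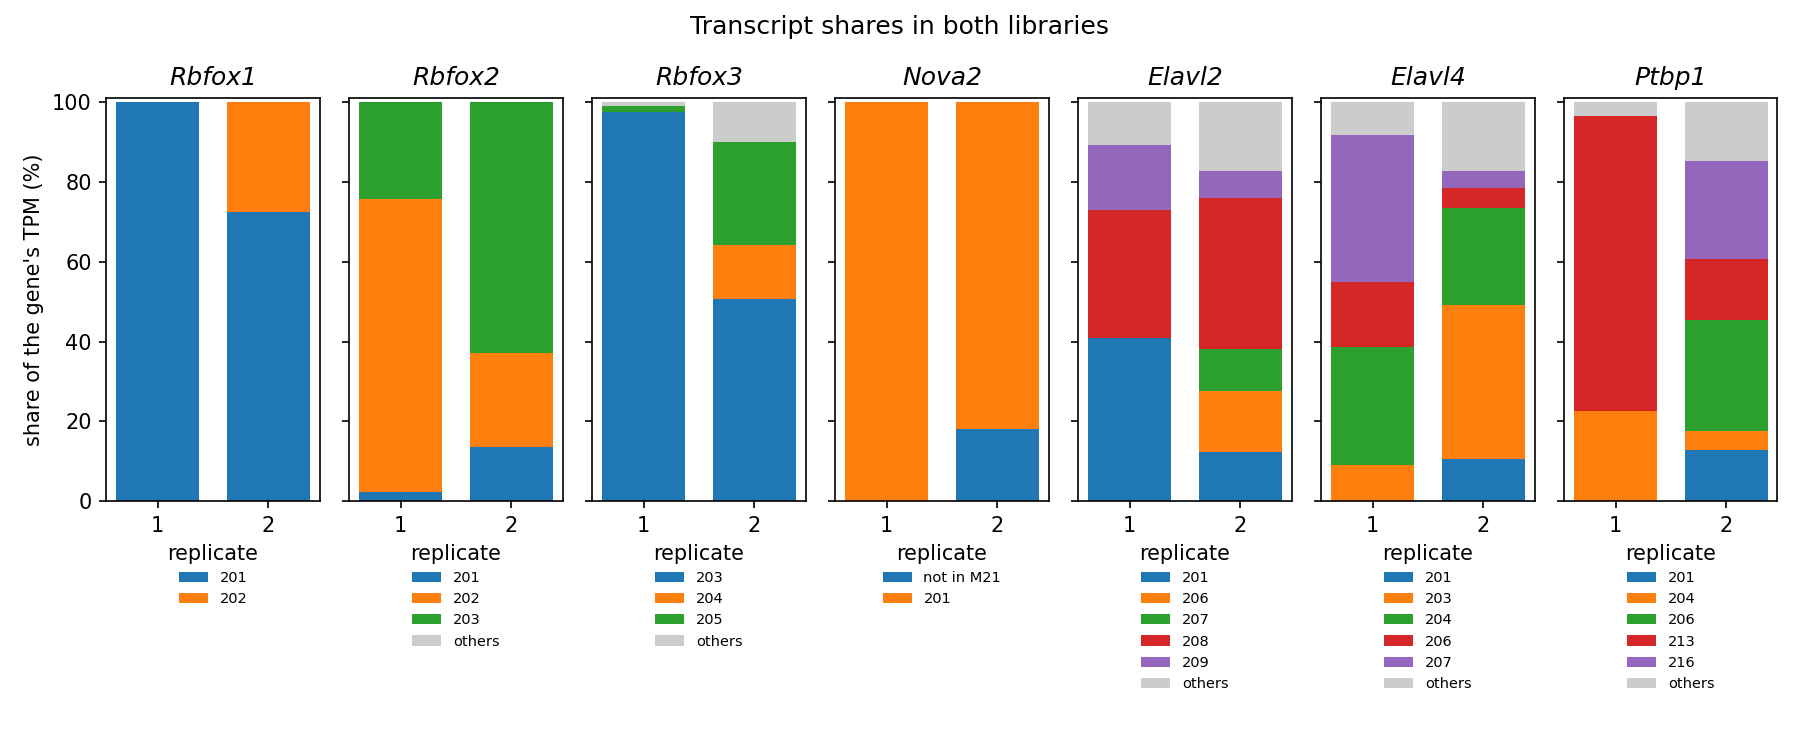
Share of each gene's TPM (%) by transcript in replicates 1 and 2, for the 7 genes with several transcripts. Colours name the transcripts with a share of at least 10% in either library by their GENCODE number, and grey sums the others. The leading transcript differs between the bars of Rbfox2, Elavl2, Elavl4 and Ptbp1.

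Rbfox1-201 held 100% of Rbfox1 in replicate 1 and 72.5% in replicate 2, where Rbfox1-202, at 0% in replicate 1, held 27.5%. Rbfox2-202 led replicate 1 with 73.3% and held 23.4% in replicate 2, where Rbfox2-203 led with 63.0%, against 24.3% in replicate 1. Rbfox2-201 held 2.37% and 13.6%. Rbfox3-203 held 97.4% and 50.7%, Rbfox3-205 1.52% and 25.9%, and Rbfox3-204 0% and 13.5%. Rbfox1 and Rbfox3 thus had more transcripts with counts in replicate 2, while the same 3 Rbfox2 transcripts had counts in both. Nova2-201 held 100% and 81.9%, and a shorter Nova2 transcript that GENCODE M21 no longer lists held 0% and 18.1%.

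The Elavl genes spread over more transcripts. Elavl2-201 held 40.9% in replicate 1 and 12.3% in replicate 2, while Elavl2-208 held 32.0% and 37.8%, and Elavl2-209 16.3% and 6.84%. Elavl2-206 and Elavl2-207 were at 0% in replicate 1 and at 15.3% and 10.4% in replicate 2. Elavl4-207 led replicate 1 with 36.9% and held 4.39% in replicate 2, where Elavl4-203 led with 38.4%, against 9.13% in replicate 1. Elavl4-204 held 29.4% and 24.3% (24.7% and 15.3% by posterior means), Elavl4-206 held 16.3% and 5.10%, and Elavl4-201 0% and 10.7%.

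Summing transcripts that share an exon brings these estimates together. The hinge of Elavl proteins, before the third RNA recognition motif, is varied by short exons, among them one of 39 bases in Elavl4 (chr4:110209740-110209778) and Elavl2 (chr4:91254141-91254179), both on the minus strand and shown here because its inclusion could be read in both genes.
Elavl4: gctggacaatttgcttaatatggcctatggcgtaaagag
Elavl2: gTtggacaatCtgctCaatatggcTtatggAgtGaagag
The paralogs differed at 6 of its bases, with equal GC content (43.6%). Transcripts with this exon held 61.5% of Elavl4 in replicate 1 and 95.5% in replicate 2, of the transcripts that span it. For Elavl2 they held 99.0% and 85.2%, so the libraries differed in opposite directions for the same exon of the paralogs. A 5′ exon of Elavl2 of 91 bases, 72 of them coding (chr4:91311573-91311663), was included at 32.4% and 66.1%.

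Rbfox genes carry an exon of 40 bases near the end of the coding region, one of the alternative exons that give Rbfox proteins different C-termini. It is shown for Rbfox2 (chr15:77094451-77094490) and Rbfox3 (chr11:118496351-118496390), both on the minus strand, with capitals marking differences from the Rbfox1 exon (chr16:7363865-7363904, plus strand).
Rbfox1: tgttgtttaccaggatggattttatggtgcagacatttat
Rbfox2: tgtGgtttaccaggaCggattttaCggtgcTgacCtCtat
Rbfox3: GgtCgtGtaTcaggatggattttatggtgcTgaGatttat
In Rbfox2 it was included at 24.3% in replicate 1 and 63.0% in replicate 2, and posterior mean shares gave 42.5% and 62.6%. The same transcripts carried a form of the preceding exon that is 145 bases long, and 3 of the 4 Rbfox2 transcripts have another length in GENCODE M21. In Rbfox3 the exon of 40 bases was used at 97.4% and 66.9%, against 2.58% and 33.1% for a form of 181 bases. The Rbfox3 exon of 93 bases, printed above, was included at 100% in both libraries. Loss of this exon, which removes part of the RNA recognition motif, was therefore not seen in the shares of the transcripts that span it. A Rbfox3 exon of 40 bases in the 5′ UTR was included at 98.5% and 73.0%.

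For Ptbp1 the kind of transcript differed as well as the level. Transcripts annotated as retained introns held 96.3% of its TPM in replicate 1 and 21.4% in replicate 2 (55.2% and 23.6% by posterior means). Protein-coding transcripts held 3.67% and 65.8% (27.0% and 56.8% by posterior means), and those annotated for nonsense-mediated decay 0% and 12.7% (8.63% and 12.3%). The replicate 1 shares therefore depended strongly on which deposited estimate was read. In TPM, the coding transcripts stood at 0.11 in replicate 1, on 3.75 expected counts, and at 11.7 in replicate 2, on 335 counts. Retained-intron transcripts were at 2.89 and 3.82 TPM, so nearly all of the TPM gap lay in the other kinds. Ptbp1-213, a retained-intron transcript, held 73.7% and 15.2%, and Ptbp1-204, another, 22.7% and 4.84%. The coding transcripts Ptbp1-206 and Ptbp1-216 were at 0% in replicate 1 and at 27.9% and 24.7% in replicate 2. Ptbp1-201, annotated for nonsense-mediated decay, was at 0% and 12.7%. Over protein-coding transcripts alone the Ptbp2 to Ptbp1 ratio was 737 in replicate 1, which rests on those 3.75 counts, and 3.76 in replicate 2.

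Both Ptbp genes carry an exon of 34 bases whose skipping shifts the reading frame, the known switch by which PTB proteins hold down their own and each other's mRNA. It is shown for Ptbp2 (chr3:119724612-119724645, minus strand) and Ptbp1 (chr10:79862014-79862047, plus strand), followed by the Ptbp1 exon of 78 bases (chr10:79860117-79860194), which lengthens the linker before the third RNA recognition motif and has no counterpart to mark.
Ptbp2: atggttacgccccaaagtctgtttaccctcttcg
Ptbp1: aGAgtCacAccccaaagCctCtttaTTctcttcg
Ptbp1 exon of 78 bases: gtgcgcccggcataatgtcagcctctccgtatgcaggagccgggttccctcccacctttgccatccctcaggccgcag
The exon of 34 bases was present in 13.9% of the Ptbp1 transcripts that span it in replicate 1, on 8.75 counts, and in 77.2% in replicate 2 (28.3% and 75.0% by posterior means). Among coding and decay transcripts alone it was present in 100% and 82.4%, and the replicate 1 value again rests on 3.75 counts. The exon of 78 bases was at 0% in replicate 1 on those same counts, which is too few to read, and at 34.1% in replicate 2. The Ptbp1 exon of 93 bases that follows was present in 26.3% and 83.6% (39.9% and 82.6% by posterior means), and in 100% of coding and decay transcripts in both. For Ptbp2 the tables hold 1 transcript, which includes the exon of 34 bases, so skipping could not be measured for it.

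A list of 34 other RNA-binding protein genes and genes with well known target exons gave the surroundings of these 10. Of them 9 were called higher and 13 lower with TMM, beside 34.5% and 24% of all genes. With totals 10 were called higher and 5 lower, beside 43.6% and 7.9% of all genes. The GC split recurred: those called higher had a GC content of at least 55.0% and those called lower of at most 47.0%. With a GC trend removed from the counts 0 were called higher and 7 lower, beside 10.4% and 9.25% of all genes. The ubiquitous relative Elavl1, or HuR, was at 17.0 and 17.2 TPM and was not called, and Ptbp3 at 12.1 and 8.80 TPM was called lower with TMM and not with totals. Elavl1 was thus below the neuronal Elavl2 and Elavl4 in both libraries. The neuronal Elavl3, at 15.8 and 67.9 TPM, was below Elavl1 in replicate 1 and above it in replicate 2.

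Of 15 other splicing regulators of brain, 4 were called higher and 5 lower with TMM, beside 34.5% and 24% of all genes. Their median log2 TPM ratio was 0.18, against 0.89 for all genes. The highest were Celf4 (131.4 and 145.5 TPM, not called), Qk, the quaking gene of glia (160.7 and 92.1, lower), and Mbnl2, a muscleblind gene (124.8 and 79.8, lower). Of 11 partners of PTB proteins and general factors, 1 was called higher and 6 lower, beside those same shares of all genes, with a median of -0.15. The highest were the nuclear matrix gene Matr3 (730.6 and 404.5 TPM), Hnrnpk (666.5 and 358.5) and Hnrnpa2b1 (263.8 and 251.5), all called lower with TMM, of which Matr3 was also lower with totals. Of 6 genes with target exons, 4 were called higher and 1 lower, beside the same shares of all genes, with a median of 2.15. Gabbr1, a GABA-B receptor subunit, was at 218.5 and 366.0 TPM and not called. Dlg4, the postsynaptic density gene whose exon PTB proteins repress, was at 9.78 and 345.1 TPM and called higher. Medians and counts of these lists describe 2 libraries and show nothing particular to a list.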

How the data were processed

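Poly(A) RNA of 1 mouse brain was measured in 2 libraries. Expected counts, which are estimates with fractions, were deposited by the authors for genes and transcripts. TPM was deposited by the authors likewise, with posterior means and intervals of unstated level. Transcript tables deposited by the authors also give each transcript's percent of its gene. The deposited listings name mm10 and GENCODE M4. Column names are those RSEM writes, per the file headers, and versions of quantifier and aligner are not given in the sources used. Depth was 18302506 and 17828479 counts. Up to 3 counts could underlie an observed 0, or 1.64e-05% of replicate 1 and 1.68e-05% of replicate 2. Exact 95% Clopper-Pearson intervals and these limits cover counting error only. Left out were 26345 rows per gene table with no Ensembl gene identifier, which held 0 counts in replicate 1 and 1 in replicate 2.

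Symbols, positions, sequences and GC content came from GENCODE M21 (GRCm38), matched by identifier. Of the 65 transcripts of the 10 genes 64 were found, 58 with the same length. GC content of a gene averages its transcripts by mean TPM. Expected counts were rounded and compared by an exact binomial test, two-sided, with TMM sizes (edgeR 4.0.16, R 4.3.3), where both libraries together had 10 counts or more, and Benjamini-Hochberg adjusted over all of them. A gene was called at an adjusted p under 0.05 and 2-fold or more, and 0.5 was added to both counts in computing folds. Log2 TPM ratios use a pseudocount of 1. GC trends are lowess fits with a fraction of 0.2 (statsmodels 0.14.6) over all genes whose mean TPM reached 1, or all genes tested. The test was checked only on simulated counts with counting error and made-up changes, so its error rate in these libraries was not measured. Exon inclusion is the share of transcripts that contain an exon over those that span it. Alternatives were library totals, DESeq2 1.42.0 size factors, no count filter, no minimum fold, other pseudocounts (0.1 and 5), posterior means, a GC trend, and each library alone. With a single library per side, count models with a spread could not be fitted. The 10 genes are named in every result. Of the other genes, the 3 of highest mean TPM in each list, Elavl1 and Ptbp3 are named, except for 1 gene that is not reported here, and of the transcripts those with a share of at least 10% in either library. The genes and lists were chosen with earlier results of these data known, and the exons and printed sequences after their values were seen. Scripts ran in Python 3.11.15 with scipy 1.17.1, pandas 2.3.3, numpy 2.4.6 and matplotlib 3.10.9.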

Additional observations from a re-analysis of the deposited data

How the results depend on the processing

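Calls rest on 1 library per side, so nothing here measures the spread between extractions or animals. No paired analysis was possible because there is 1 group. Genes called lower numbered 3917 with TMM, 1290 with totals and 6397 with no minimum fold, or 24%, 7.9% and 39.2% of all genes tested. Of the 10 genes 5 were called lower with TMM and 2 with totals. For the 34 other genes, 5 were called lower with totals, beside that 7.9% of all genes. With a GC trend removed, 2 of the 10 genes were called (0 higher, 2 lower) and 7 of the 34 (0 higher, 7 lower), the latter chosen after seeing the data. By that rule 10.4% of all genes were called higher and 9.25% lower. The log2 count ratio then changed sign for Rbfox3 (-1.57), Nova1 (0.51), Nova2 (-1.35), Elavl2 (0.11), Elavl3 (-0.65) and Elavl4 (0.11), and was -0.52 for Rbfox1, -0.27 for Rbfox2, 0.21 for Ptbp1 and -0.31 for Ptbp2. The log2 TPM ratio changed sign for Rbfox1 (-0.12), Rbfox3 (-0.11), Nova1 (0.45), Nova2 (-0.55), Elavl2 (0.28) and Elavl3 (-0.064). With TPM taken outside mitochondrial genes and their nuclear copy, chosen after seeing the data, all 10 log2 TPM ratios were lower. Rbfox1 changed sign (-0.84), and the others became 0.12 for Rbfox2, 2.18 for Rbfox3, -1.19 for Nova1, 1.56 for Nova2, -1.25 for Elavl2, 1.14 for Elavl3, -1.67 for Elavl4, 1.51 for Ptbp1 and -1.81 for Ptbp2. The log2 ratio of summed TPM went from 0.98 to 0.032 for the Rbfox family and from -0.44 to -1.39 for Ptbp, and changed sign for Nova (0.46 to -0.48) and Elavl (0.12 to -0.82). The Ptbp2 to Ptbp1 ratio, 6.01 from mean TPM, ranged from 2.47 to 27.0 when each library was left out. In replicate 1 and replicate 2 it was 14.4 and 1.82 with posterior mean TPM, 53.0 and 3.47 with counts, and, chosen after seeing the data, 737 and 3.76 with coding transcripts alone. Beyond the construction of each alternative, the cause was not tested. DESeq2 size factors, posterior mean counts and no count filter changed no call of the 10 genes. Depth limits Ptbp1 in replicate 1, with 70 counts, and its transcript shares.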
